A study of Mus musculus with 31 samples.

Results

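Snrpn, Ndn, Magel2, Mkrn3 and Peg12 are the protein-coding genes of the imprinted domain on mouse chromosome 7 that corresponds to the human Prader-Willi region. They were chosen by name, joined names included, which gave 5 genes in 7 of the 17484 rows of the deposited tables. Ndn, Magel2, Mkrn3 and Peg12 had 1 row each. Snrpn had a row of its own and 2 rows joined with Snurf, named Snrpn;Snurf and Snrpn,Snurf. The authors' notes give joined names to strain differences that belong to 2 genes, and what the 2 separators stand for is not given in the sources used here.

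Allele-specific RNA sequencing was done on F1 hybrids of 2 mouse strains, C57BL/6J (B6) and JF1, in which single-base differences tell the parental alleles apart. The BJ1 cross had a B6 mother and a JF1 father, and the JB6 cross had a JF1 mother and a B6 father. Hybrid embryonic stem cells (ESCs) were derived from blastocysts of both crosses, whose B6 parent carried an Oct4-GFP transgene, and were turned toward cortex in defined medium with 1 µM of cyclopamine, a Hedgehog pathway inhibitor, from day 2 to day 10. The culture groups were ESCs, day 12 and day 21, with 2 BJ1 and 2 JB6 libraries each, all 12 labelled male. The tissue groups, without treatment, were E13.5 with 3 libraries per cross, labelled DT, and newborn cortex at P0 with 4 BJ1 and 3 JB6 libraries, and 11 of these 13 libraries were labelled female, so sex differs between culture and tissue as well. In culture the cross cannot be told apart from the stem cell line derived from it. The labels do not say which libraries came from separate animals or cultures, so the p-values measure the spread between these samples, part of which may be technical.

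In the mammalian brain the genes of this domain are read from the chromosome inherited from the father. An imprinting centre at the Snrpn promoter carries DNA methylation on the maternal chromosome, set in the oocyte, and acts on the whole domain, while the neighbouring gene Ube3a is read mainly from the maternal allele in neurons. Snrpn encodes SmN, a core protein of splicing ribonucleoproteins, on a transcript that also encodes Snurf. Ndn (necdin) and Magel2 are MAGE family proteins, Mkrn3 is a RING finger ubiquitin ligase linked to the timing of puberty, and Peg12 (Frat3) belongs to the family of GSK3-binding proteins.

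The promoters of Snrpn and Ndn are shown because both genes are read from the same parental chromosome and share an 8-base palindrome. Each sequence runs from 250 bases before to 50 bases after a RefSeq start site (GRCm38.p6), and the capitals mark CGCATGCG. The first is the start that Snrpn shares with Snurf, at chr7:60005150-60005449 on the minus strand, and the second is Ndn at chr7:62348027-62348326 on the plus strand.
Snrpn: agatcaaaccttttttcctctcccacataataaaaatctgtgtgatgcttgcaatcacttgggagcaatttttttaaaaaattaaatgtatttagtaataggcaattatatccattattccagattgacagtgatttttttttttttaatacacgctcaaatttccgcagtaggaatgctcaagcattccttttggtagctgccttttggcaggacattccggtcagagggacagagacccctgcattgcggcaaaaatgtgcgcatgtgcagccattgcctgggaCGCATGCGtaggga
Ndn: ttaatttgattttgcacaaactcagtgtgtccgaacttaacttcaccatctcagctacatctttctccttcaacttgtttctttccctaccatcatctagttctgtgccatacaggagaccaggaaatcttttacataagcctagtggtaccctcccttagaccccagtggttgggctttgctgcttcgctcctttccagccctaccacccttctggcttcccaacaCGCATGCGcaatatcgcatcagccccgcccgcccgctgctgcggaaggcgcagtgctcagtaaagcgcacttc
The palindrome begins 36 bases after the Snrpn start and 23 bases before the Ndn start. All 4 RefSeq starts of Snrpn and the Ndn start held 1 copy, whereas 1.86% of 32817 promoters of the same length held any. The windows of the Snrpn starts not shown share long stretches of sequence, so their copies are not independent of each other. The windows of Magel2, Mkrn3 and Peg12 held none. The motif was chosen after the sequences were seen and reads the same on both strands. The 6-base TGCCGC, searched on both strands, was present in 11.6% of all promoters and once at this Snrpn start. It was not found in the windows of the other 4 genes. The number of CpG dinucleotides was 7 at this Snrpn start, 11 for Ndn, 10 for Magel2, 15 for Mkrn3 and 12 for Peg12, against a median of 7 over all promoters. These matches are descriptions of sequence, and no binding or methylation was measured.

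Each value is a count of bases read over strain differences, here called read bases. Libraries held 5192382 to 8618253 read bases. The maternal share is the percentage of a gene's read bases that carry the maternal allele, and levels are both alleles together in CPM (counts scaled to the library total), which are not compared between genes. Means are over libraries, with the SD. Tests of shares compared log2 ratios of maternal to paternal read bases, and the percentage points beside their p-values are descriptions. A test of shares, or of levels between crosses, needed a mean of 20 read bases in each stage used, and a test of levels between stages a mean of 20 over both stages together. ESCs reached that floor for Snrpn and Mkrn3 only, day 12, day 21 and E13.5 for all 5 genes, and P0 for all but Peg12. The row Snrpn,Snurf was below it at every stage. Ndn and Snrpn;Snurf rest on 1 strain difference each, so their shares depend on a single position, and the Snrpn rows share transcripts. Peg12 has the paralogs Frat1 and Frat2, and how reads shared with them were counted is not given in the sources used here. One gap preceded all results: replicate 3 of E13.5 BJ1 held no read base for Snrpn;Snurf, against 198 to 339 in the other libraries of the stage. It was 1 of 2 such rows at any stage, the other being Lum at E13.5, where such a row has no read base in 1 library and at least 100 in every other. The values of Snrpn itself do not use that position.

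In tissue the 5 genes were read almost entirely from the paternal allele in both crosses. At P0, Snrpn had no maternal read base in the 4 BJ1 libraries, which held 910, 740, 687 and 718 read bases. It had 2 maternal read bases in each JB6 library, among 722, 910 and 1350. This gave a maternal share of 0% in BJ1, where 3 of 3055 read bases would be 0.0982%, and of 0.215% ± 0.0646 in JB6 (SD, n = 3). At E13.5 its share was 0.295% ± 0.292 in BJ1 and 1.01% ± 0.96 in JB6 (n = 3 each). Magel2 and Peg12 had no maternal read base in any of the 13 tissue libraries. The limit that a count of 0 allows was 1.02% and 1.86% for Magel2 at E13.5 and P0, and 1.28% and 9.68% for Peg12, where P0 held 31 read bases in all. For Mkrn3 the maternal share was 0.846% ± 1.38 over the 6 libraries of E13.5 and 0.366% ± 0.969 over the 7 of P0. These limits, and the intervals and limits given below, treat each read base as an independent count. Because 1 read over several strain differences adds several read bases, they can be too narrow. They also leave out the spread between libraries.

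In tissue, Ndn was the member whose shares differed most between the crosses. BJ1 had no maternal read base among 741 at E13.5 or 1256 at P0. JB6 had 9 of 96, 2 of 80 and 2 of 166 at E13.5, and 5 of 125, 7 of 140 and 5 of 228 at P0. The JB6 shares were 9.38%, 2.5% and 1.2% at E13.5 and 4%, 5% and 2.19% at P0, so every JB6 library lay above every BJ1 library. The BJ1 share was 4.36 percentage points below JB6 at E13.5 and 3.73 below at P0 (adjusted p = 3.84e-05 and 8.41e-07). Of all autosomal genes tested, 45.9% at E13.5 and 48.2% at P0 differed between crosses in either direction, so such a difference is common. At P0 both Snrpn rows also passed, in opposite directions (adjusted p = 0.0105 for Snrpn and 0.0196 for Snrpn;Snurf), on at most 3 maternal read bases per library. The Snrpn;Snurf difference did not pass with DESeq2 (adjusted p = 0.127), without BJ1 replicate 2 (0.105) or without JB6 replicate 3 (0.0691), and the Snrpn difference did not with counts divided by 3 (0.102).

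The test of parental bias sets the maternal against the paternal allele as a mean over both crosses. It takes out the difference between crosses, which in culture holds strain and cell line together. There the mean can cover unlike crosses, such as 40.1% in BJ1 and 0% in JB6 for Peg12 at day 21. A call in culture thus does not describe each cross. All 5 genes passed toward the paternal allele at day 12, day 21 and E13.5, and all 4 tested at P0. In ESCs 1 of 2 passed. Over all genes tested, those that passed toward the paternal side made up 0.356% in ESCs, 0.483% and 0.326% at days 12 and 21, and 0.27% and 0.317% at E13.5 and P0. The 5 genes are known as paternally expressed, so their direction is no independent evidence. Adjusted p-values ran from 3e-41 for Snrpn to 1.26e-18 for Peg12 at E13.5. At day 12 Mkrn3 passed with edgeR (adjusted p = 0.000193) and did not with DESeq2 (0.136), and at day 21 Peg12 passed with edgeR (0.001), not with DESeq2 (0.0501) and not without JB6 replicate 2 (0.126). With limma on log2 ratios Snrpn did not pass at day 12 or day 21 (0.446 and 0.289).

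**Figure D1:**
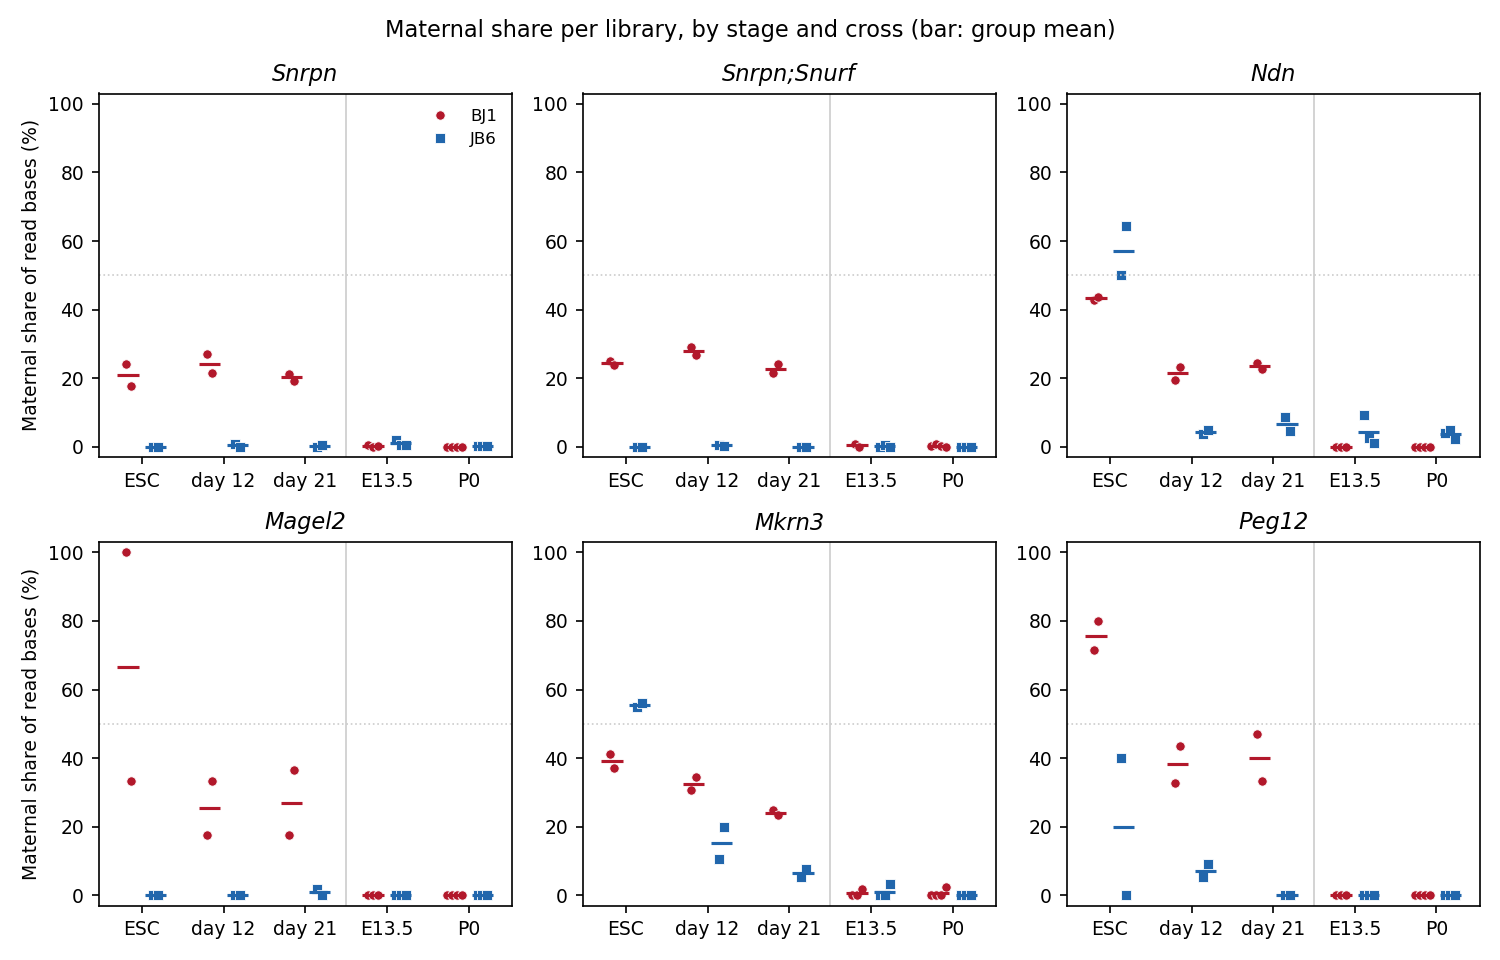
Maternal share of read bases (%) per library (points) and group mean (bars) for 6 rows of the 5 genes, by stage on the x axis and cross by colour. In culture every BJ1 library of Snrpn lies between 17.7% and 27% while the JB6 libraries lie between 0% and 0.948%, and in tissue both crosses lie near 0%, with Ndn in JB6 at 1.2% to 9.38%.

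Culture gave another picture, which depended on the cross. In BJ1 cultures Snrpn had 62 of 230 and 63 of 294 maternal read bases at day 12, and 101 of 475 and 116 of 605 at day 21. In JB6 cultures it had 2 of 211 and 0 of 303 at day 12, and 0 of 327 and 2 of 400 at day 21. The BJ1 share was thus 24.2% ± 3.91 at day 12 and 20.2% ± 1.48 at day 21, and the JB6 share 0.474% ± 0.67 and 0.25% ± 0.354 (n = 2 each). The crosses did not overlap, and they differed by 23.7 percentage points at day 12 and 20 at day 21 (adjusted p = 1.17e-29 and 1.41e-14, and 0.104 and 0.0544 with limma on log2 ratios, which did not pass). Snrpn;Snurf, at another position of the same transcripts, gave 27.9% ± 1.64 and 22.7% ± 1.95 in BJ1 and 0.439% ± 0.119 and 0% in JB6.

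Ndn, Magel2 and Peg12 showed the same separation. Ndn had 45 of 230 and 52 of 224 maternal read bases in BJ1 at day 12 and 5 of 129 and 8 of 162 in JB6. At day 21 it had 130 of 533 and 164 of 719 in BJ1 and 19 of 215 and 14 of 312 in JB6. Its share was 21.4% ± 2.58 against 4.41% ± 0.751 at day 12 and 23.6% ± 1.12 against 6.66% ± 3.08 at day 21, which are 17 and 16.9 percentage points (adjusted p = 3.23e-08 and 1.64e-08). The direction was the reverse of that in tissue. Magel2 was 25.5% ± 11.1 maternal in BJ1 at day 12 and 27% ± 13.2 at day 21, on 17 to 33 read bases per library. In JB6 it had 0 of 47 maternal read bases at day 12 and 1 of 89 at day 21 (adjusted p = 0.00164 and 0.000434). The day 12 call was lost with counts divided by 3 (0.0906), and Magel2 rests on 2 to 7 strain differences per library. Peg12 reached the highest BJ1 shares, 38.2% ± 7.69 at day 12 and 40.1% ± 9.58 at day 21, against 7.25% ± 2.61 and 0% in JB6 (adjusted p = 2.18e-05 and 0.00185). The JB6 value of 0% at day 21 rests on 25 read bases, which allow a share of up to 12%.

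Mkrn3 separated the lines least clearly. Its share at day 12 was 30.8% and 34.4% in BJ1 and 10.7% and 20% in JB6. The difference of 17.2 percentage points did not pass (adjusted p = 0.163). At day 21 the shares were 25% and 23.3% in BJ1 and 5.26% and 7.69% in JB6, a difference of 17.7 percentage points with an adjusted p of 0.0448. That call was lost with DESeq2 (adjusted p = 0.297), with all counts divided by 3 (0.243) and when any of the 4 libraries was left out (0.0858 to 0.378). Without BJ1 replicate 2 the call for Magel2 at day 21 was also lost (adjusted p = 0.0725), and the number of members that passed at day 21 was then 2, as Peg12 was under the floor. Counting all members, 4 of 5 were more maternal in BJ1 at day 12 and 5 of 5 at day 21, and none was less maternal. Over all genes tested the share more maternal in BJ1 was 20.5% at day 12 and 19.6% at day 21. The maternal allele of Snrpn stood at 11.8 ± 0.514 CPM in BJ1 at day 12 and 15 ± 0.362 at day 21, and at 0.148 ± 0.209 and 0.17 ± 0.241 in JB6. The paternal allele was at 37.3 ± 6.31 and 59.4 ± 6.87 CPM in BJ1 and 33 ± 3.03 and 59.6 ± 11.6 in JB6, overlapping between crosses at both days.

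**Figure D2:**
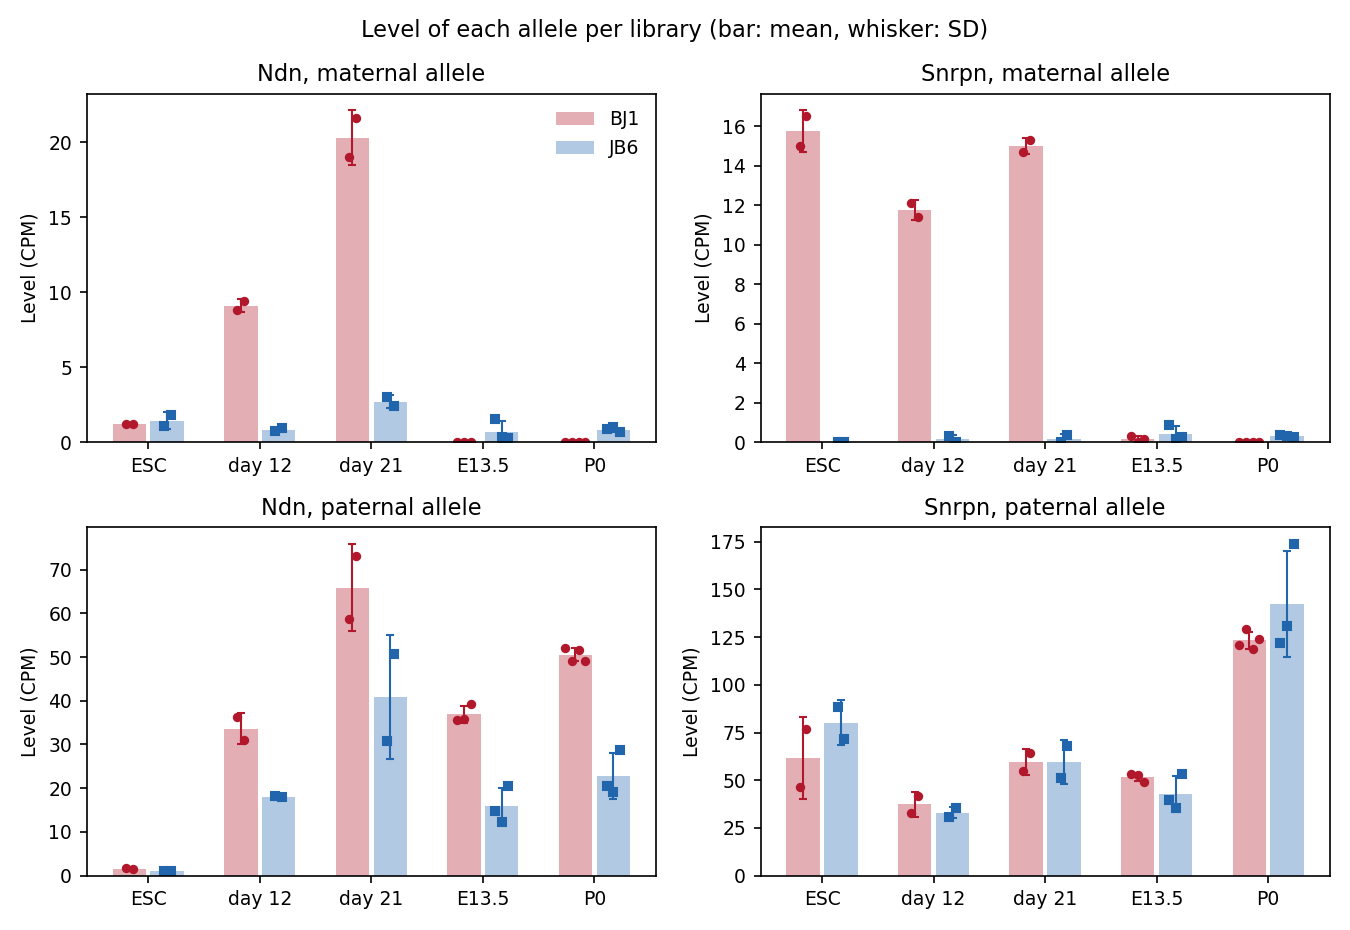
Level (CPM) of the maternal allele (upper panels) and paternal allele (lower panels) of Ndn and Snrpn per library (points), with mean (bars) and SD (whiskers), by stage and cross. The maternal allele of Ndn averages 20.3 CPM in BJ1 at day 21 and 2.69 in JB6, and has no read base in BJ1 tissue, while the paternal allele of Ndn averages 65.9 CPM in BJ1 at day 21 and 40.8 in JB6, and 1.61 and 1.03 in ESCs.

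In ESCs Snrpn already differed between crosses. It had 73 of 300 and 94 of 530 maternal read bases in BJ1 and none of 778 in JB6, where 0 allows up to 0.386%. The share was 21% ± 4.67 in BJ1, and the crosses differed by 21 percentage points for Snrpn and 24.4 for Snrpn;Snurf (adjusted p = 1.72e-10 and 7.04e-12). Of all genes tested, 26.1% were more maternal in BJ1. Mkrn3 was read from both alleles in ESCs, at 39.1% ± 2.93 in BJ1 and 55.5% ± 0.998 in JB6, and neither a parental bias (adjusted p = 0.974) nor a cross difference (0.311) passed. It held 16 to 31 read bases per ESC library, and its intervals reach from 21.5% to 76.9%. Ndn, Magel2 and Peg12 were under the floor there. Ndn held 10 to 16 read bases per ESC library and was 43.3% ± 0.631 maternal in BJ1 and 57.1% ± 10.1 in JB6, and its intervals reach from 21.4% to 83.7%. Magel2 held 4 to 9 read bases and Peg12 4 to 10, too few to read a share. The 8 ESC shares of Ndn and Mkrn3 lay between 37% and 64.3%, and the 4 of Snrpn between 0% and 24.3%.

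Within a cross, no change from ESCs to day 12 passed for Snrpn, at 21% and 24.2% in BJ1. Mkrn3 went from 55.5% to 15.4% maternal in JB6 (adjusted p = 0.00453), as did 4.92% of all genes tested, a call that was lost without ESC JB6 replicate 1 (0.079) and with counts divided by 3 (0.105). In BJ1 Mkrn3 was 39.1% and 32.6%, which did not pass (adjusted p = 0.807). Taken over both crosses with edgeR, 0 of 2 members passed between ESCs and day 12, 0 of 5 between day 12 and day 21 and 0 of 4 between E13.5 and P0. Among these 4, Magel2 and Ndn could not be fitted for lack of maternal read bases. In each of the 3 comparisons 1 member had an unadjusted p under 0.05, and DESeq2 called 0. The background for either direction was 0.341%, 0.0495% and 0.136%. The BJ1 shares of day 12 and day 21 overlapped for Ndn, Magel2 and Peg12.

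Culture was then set against tissue within each cross, with day 12 against E13.5 and day 21 against P0. In BJ1 all 5 members were more maternal at day 12 than at E13.5, by 23.9 percentage points for Snrpn, 21.4 for Ndn, 25.5 for Magel2, 32 for Mkrn3 and 38.2 for Peg12. The adjusted p-values were 2.55e-14, 1.92e-12, 0.00138, 1.42e-05 and 6.71e-06. At day 21 all 4 tested members were more maternal than at P0, by 20.2, 23.6, 27 and 23.5 percentage points for Snrpn, Ndn, Magel2 and Mkrn3 (adjusted p = 5.34e-20, 3.38e-17, 0.00512 and 2.39e-05). Over all genes tested 3.72% and 4.63% were more maternal in BJ1 culture. Magel2 lost both calls with counts divided by 3 (adjusted p = 0.0555 and 0.0818) and without BJ1 replicate 2 of the culture day (0.0728 and 0.139).

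In JB6, 2 of 4 fitted members were more maternal at day 12 than at E13.5, and Magel2 could not be fitted. At day 12 Mkrn3 was 14.3 percentage points more maternal than at E13.5 (adjusted p = 0.0143) and Peg12, with 10 of 125 maternal read bases against 0 of 126, 7.25 points (0.0326). Both calls were lost without day 12 JB6 replicate 2 (adjusted p = 0.335 and 0.278) and with counts divided by 3 (0.464 and 0.237), and Peg12 also without any one E13.5 JB6 library (0.0718 to 0.141). Mkrn3 also lost its call without E13.5 JB6 replicate 2 (0.0852). Snrpn differed from E13.5 by -0.536 percentage points and Ndn by 0.0472, and neither passed (adjusted p = 0.637 and 0.899). At day 21, 0 of 4 members passed against P0 with edgeR, 1 had an unadjusted p under 0.05 (Mkrn3, 6.48 points, adjusted p = 0.132) and DESeq2 called 0. The background was 5.31% at day 12 and 5.24% at day 21.

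Taken as the mean of both crosses, 3 of 4 fitted members were more maternal at day 12 than at E13.5, where Magel2 could not be fitted. At day 21, 3 of 4 were more maternal than at P0. Of all genes tested, 0.803% and 0.795% were more maternal in these comparisons. With counts divided by 3, 1 of 4 passed at day 21, and without a day 21 JB6 library the calls for Mkrn3 (without replicate 1, adjusted p = 0.206) and Snrpn (without replicate 2, adjusted p = 1) were lost. The difference between crosses was itself set between culture and tissue. BJ1 exceeded JB6 by more in culture for Ndn and Snrpn at day 12 (adjusted p = 1.62e-06 and 1.65e-05) and at day 21 (5.38e-08 and 1.22e-05), against 6.93% and 7.55% of all genes tested. Mkrn3 did not pass (adjusted p = 0.406 and 0.83), nor did Snrpn;Snurf at day 12 (0.215). Magel2 at both times and Peg12 at day 12 could not be fitted, because neither cross had a maternal read base in tissue, and Snrpn;Snurf could not at day 21.

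Levels followed a separate course for each gene. Ndn was lowest in ESCs and rose from day 12 to day 21. Its level was 2.1 to 2.87 CPM in the 4 ESC libraries, 18.8 to 44.9 at day 12, 33.8 to 94.5 at day 21, 12.6 to 39.2 at E13.5 and 20.2 to 52.1 at P0. The ESC libraries lay below all others. Day 12 was 3.41 ± 0.211 above ESCs on the log2 scale, given as a description because Ndn held 10 to 16 read bases per ESC library and was kept only through day 12. From day 12 to day 21 it rose by 1.1 ± 0.158 (adjusted p = 4.33e-06). Ndn at day 12 did not differ from E13.5 beyond its spread (0.2 ± 0.147, adjusted p = 0.216), was 0.82 ± 0.136 higher at day 21 than at P0 (8.55e-06) and rose by 0.48 ± 0.127 from E13.5 to P0 (0.00166).

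Snrpn moved in the other direction first. It was at 61.6 to 93.3 CPM in ESCs, 31.2 to 53.1 at day 12, 51.4 to 79.6 at day 21, 35.4 to 53.7 at E13.5 and 119 to 174 at P0, where every library lay above all others. It fell by 0.97 on the log2 scale from ESCs to day 12 (SE 0.153, adjusted p = 5.51e-06) and rose by 0.72 ± 0.153 to day 21 (0.000388) and by 1.49 ± 0.121 from E13.5 to P0 (1.54e-10). Day 12 and E13.5 did not differ beyond the spread (-0.23 ± 0.141, adjusted p = 0.135), and day 21 was lower than P0 (-0.99 ± 0.137, 6.33e-07). The Snrpn;Snurf row rose by 1.84 ± 0.379 from E13.5 to P0 with the empty library included (adjusted p = 0.000178), and its difference of -1.03 ± 0.468 between day 12 and ESCs did not pass (0.051).

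Peg12 and Magel2 were low in ESCs and, in tissue, lower at P0 than at E13.5. Peg12 was at 0.807 to 2.1 CPM in ESCs, 5.47 to 11.3 at day 12, 1.73 to 5.13 at day 21, 3.63 to 9.74 at E13.5 and 0.258 to 1.16 at P0. It fell by 1.52 on the log2 scale from day 12 to day 21 (SE 0.337, adjusted p = 0.00062). Day 12 was 2.57 ± 0.381 above ESCs and P0 lay at -3.05 ± 0.329 against E13.5, both given as descriptions, because means of 7.75 read bases in ESCs and 4.43 at P0 kept Peg12 only through the other stage. Magel2 was at 0.821 to 1.82 CPM in ESCs, 2.37 to 3.8 at day 12, 2.48 to 7.86 at day 21, 6.13 to 9.64 at E13.5 and 1.57 to 6.58 at P0. Magel2 fell by 1.09 from E13.5 to P0 (SE 0.214, adjusted p = 7.75e-05) and was lower at day 12 than at E13.5 (-1.13 ± 0.255, 0.000329). Mkrn3 stayed between 2.05 and 8.04 CPM in all 25 libraries, and none of its 5 stage differences passed (adjusted p = 0.413 to 0.885).

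The weakest calls of level depended on the setting. Peg12 at day 12 was 0.64 ± 0.284 higher than at E13.5 (adjusted p = 0.0442), and the call was lost with female tissue libraries only (0.0845), without TMM scaling (0.0715), with the replicate number as a block (0.142) and in 7 of 10 fits that left out a library. Magel2 at day 21 was 0.56 ± 0.246 higher than at P0 (adjusted p = 0.039), which did not pass with DESeq2 (0.0907) nor in 6 of 11 fits that left out a library. Of all genes tested, 78% changed in either direction between ESCs and day 12, 53.3% between day 12 and day 21, 76.7% between E13.5 and P0, 80.6% between day 12 and E13.5 and 81.4% between day 21 and P0. Of the members at the floor in both stages, 1 of 2, 3 of 5, 3 of 4, 2 of 5 and 3 of 4 passed in these comparisons.

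**Figure D3:**
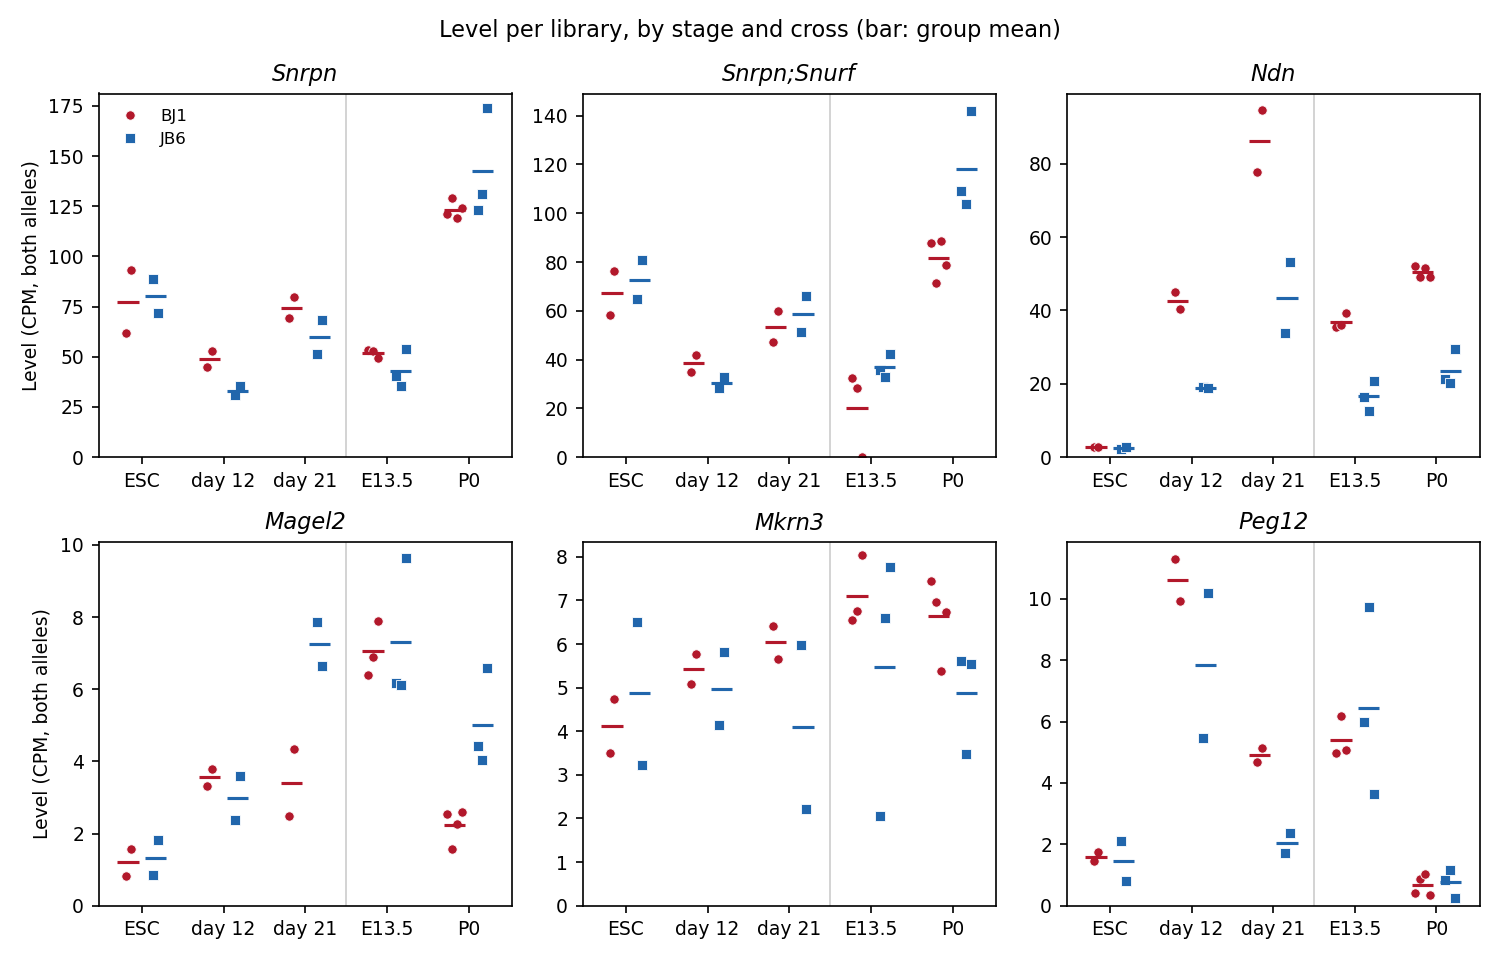
Level (CPM, both alleles) per library (points) and group mean (bars) for 6 rows of the 5 genes, by stage on the x axis and cross by colour. Ndn is lowest in ESCs (2.1 to 2.87 CPM) and higher in BJ1 than in JB6 from day 12 on, Snrpn is highest at P0 (119 to 174 CPM), and the library at 0 for Snrpn;Snurf is replicate 3 of E13.5 BJ1.

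In bulk samples fewer cells of a type and less RNA per cell cannot be told apart, and cell type markers moved with the stages. The summed level of 10 neuronal markers measured was 365 to 607 CPM in ESCs and 193 to 649 at day 12, which overlap. It was 1513 to 1998 CPM at day 21, 1437 to 2673 at E13.5 and 11337 to 12000 at P0. That of 9 markers of dorsal telencephalic progenitors was, in the same order, 58.1 to 76, 164 to 410, 268 to 364, 1399 to 1737 and 821 to 1039 CPM. Culture held markers of other lineages: 9 mesendoderm and other lineage markers summed to 2018 to 3622 CPM at day 12 and 2694 to 3506 at day 21, against 3.16 to 30 in tissue. The 6 markers of blood, vessel, meninges and microglia summed to 6040 to 9422 CPM at day 21 and 31.9 to 583 in tissue. The 8 pluripotency markers measured summed to 2730 to 6160 CPM in ESCs and 13.7 to 53.7 at day 12. At day 21 no neuronal, progenitor, glial, blood or mesendoderm marker measured was at 0 in either cross, and 2 pluripotency markers were, while at P0 4 of the 9 mesendoderm markers were at 0. The part of these cells in the levels and shares of the members was not tested. Glial markers, 8 measured, summed to 432 to 905 CPM at day 21 and 460 to 600 at P0. The 8 markers of GABAergic and ventral forebrain cells reached 64.4 to 113 and 394 to 511 CPM, and 9 of caudal neural tube and hypothalamus 17.2 to 19.4 and 0.523 to 1.16 CPM.

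Ndn was the member whose level differed between the crosses. At E13.5 it was at 36.9 ± 1.99 CPM in BJ1 and 16.6 ± 4.11 in JB6 (n = 3 each), and at 50.5 ± 1.56 (n = 4) and 23.6 ± 5.04 (n = 3) at P0, with no overlap. In culture it was at 42.7 ± 3.15 and 18.9 ± 0.182 CPM at day 12 and 86.2 ± 11.8 and 43.5 ± 13.7 at day 21 (n = 2 each), again with no overlap. The log2 difference, BJ1 over JB6, was 1.14 ± 0.188 at E13.5 (adjusted p = 0.0037), 1.09 ± 0.175 at P0 (0.014), 1.17 ± 0.228 at day 12 (0.00669) and 0.99 ± 0.218 at day 21, where it did not pass (0.0571). By DESeq2 the day 21 difference passed (adjusted p = 0.00873). The P0 call was lost with female libraries only (0.087) and without BJ1 replicate 3, JB6 replicate 1 or JB6 replicate 2 (0.0626 to 0.204), and the day 12 call without BJ1 replicate 1, BJ1 replicate 2 or JB6 replicate 2 (0.0569 to 0.0643). Neuronal markers moved with the cross at some of these stages: their summed level was 459 to 649 CPM in BJ1 and 193 to 318 in JB6 at day 12, 2472 to 2673 and 1437 to 2241 at E13.5, 1513 to 1986 and 1966 to 1998 at day 21, and 11337 to 12000 and 11464 to 11793 at P0. Progenitor markers were at 280 to 410 and 164 to 248 CPM at day 12. Their part in the level of Ndn was not tested. In BJ1 the paternal allele is JF1, so the JF1 allele of Ndn gave the higher paternal level, 36.9 ± 1.99 against 15.9 ± 4.23 CPM at E13.5 and 50.5 ± 1.56 against 22.8 ± 5.21 at P0.

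No other member passed between crosses at any stage, and the counts of members were 0 of 2 in ESCs, 1 and 0 of 5 at days 12 and 21, 1 of 5 at E13.5 and 1 of 4 at P0. The background was 1.86%, 3.65%, 0.236%, 3.06% and 0.0185%, the last being 2 of 10783 genes. In ESCs no member had an unadjusted p under 0.05 and DESeq2 called 0, while at day 21 these counts were 3 and 1. Magel2 was lower in BJ1 than in JB6 at P0, at 2.24 ± 0.467 and 5.02 ± 1.37 CPM, without overlap, but did not pass (adjusted p = 0.243).

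The other transcripts and the genes around the members were read from a list of the region. Of 7 other paternally expressed transcripts, D7Ertd715e was above the floor in ESCs and at day 12. Its share there was 23.3% ± 1.12 and 26.8% ± 14.3 in BJ1 and 0.199% ± 0.282 and 0% in JB6. At E13.5 it was at 0.396% ± 0.35 in BJ1 and 0.238% ± 0.412 in JB6. It was more maternal in BJ1 at day 12 than at E13.5 (adjusted p = 1.56e-07). A230057D06Rik and A330076H08Rik, also paternal in tissue, held 139 and 34 read bases in BJ1 and 442 and 57 in JB6 at E13.5, and were under the floor in culture. Ipw went against the others: in BJ1 none of 541 read bases at P0 were maternal, and in JB6 66.5% ± 2.77 were, with 65.1% ± 6.31 at E13.5. The BJ1 paternal and the JB6 maternal allele are both JF1, so most Ipw read bases in tissue were JF1 in both crosses. The fitted parental bias of Ipw averages these crosses and describes neither.

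Ube3a, an ubiquitin ligase gene read from the maternal allele in neurons, reached a maternal share of 75.6% ± 5.32 in BJ1 and 69.2% ± 11.7 in JB6 at P0 (adjusted p = 2.86e-06). It was 57.9% ± 2.19 and 46.2% ± 3.64 at E13.5, and 56.2% ± 20.7 and 43.8% ± 5.3 at day 21, and no parental bias passed at these stages or in ESCs or at day 12. Its share rose from E13.5 to P0 (adjusted p = 0.00165) and was lower at day 21 than at P0 (0.0106). Atp10a, a phospholipid transporter gene, passed in no test of parental bias. It was more maternal in JB6 at day 21 (72.7% ± 5.97 against 21.5% ± 5.36 in BJ1, adjusted p = 1.66e-08) and in BJ1 at E13.5 (65.2% ± 1.33 against 24.7% ± 2.66, 2.73e-06). By strain, most Atp10a read bases were JF1 in both lines at day 21 and B6 in both crosses at E13.5. Of 19 flanking genes, 11 to 17 were tested per stage and 0 showed a parental bias with edgeR or DESeq2, with 0 or 1 at an unadjusted p under 0.05. Herc2, a flanking gene for an ubiquitin ligase, had a P0 share of 49.6% ± 1 in BJ1 and 50.9% ± 0.542 in JB6. In BJ1 at day 12 against E13.5, 0 of 11 flanking genes passed with edgeR or DESeq2 and 4 had an unadjusted p under 0.05, and at day 21 against P0 1 of 13 passed, less maternal in culture.

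**Figure D4:**
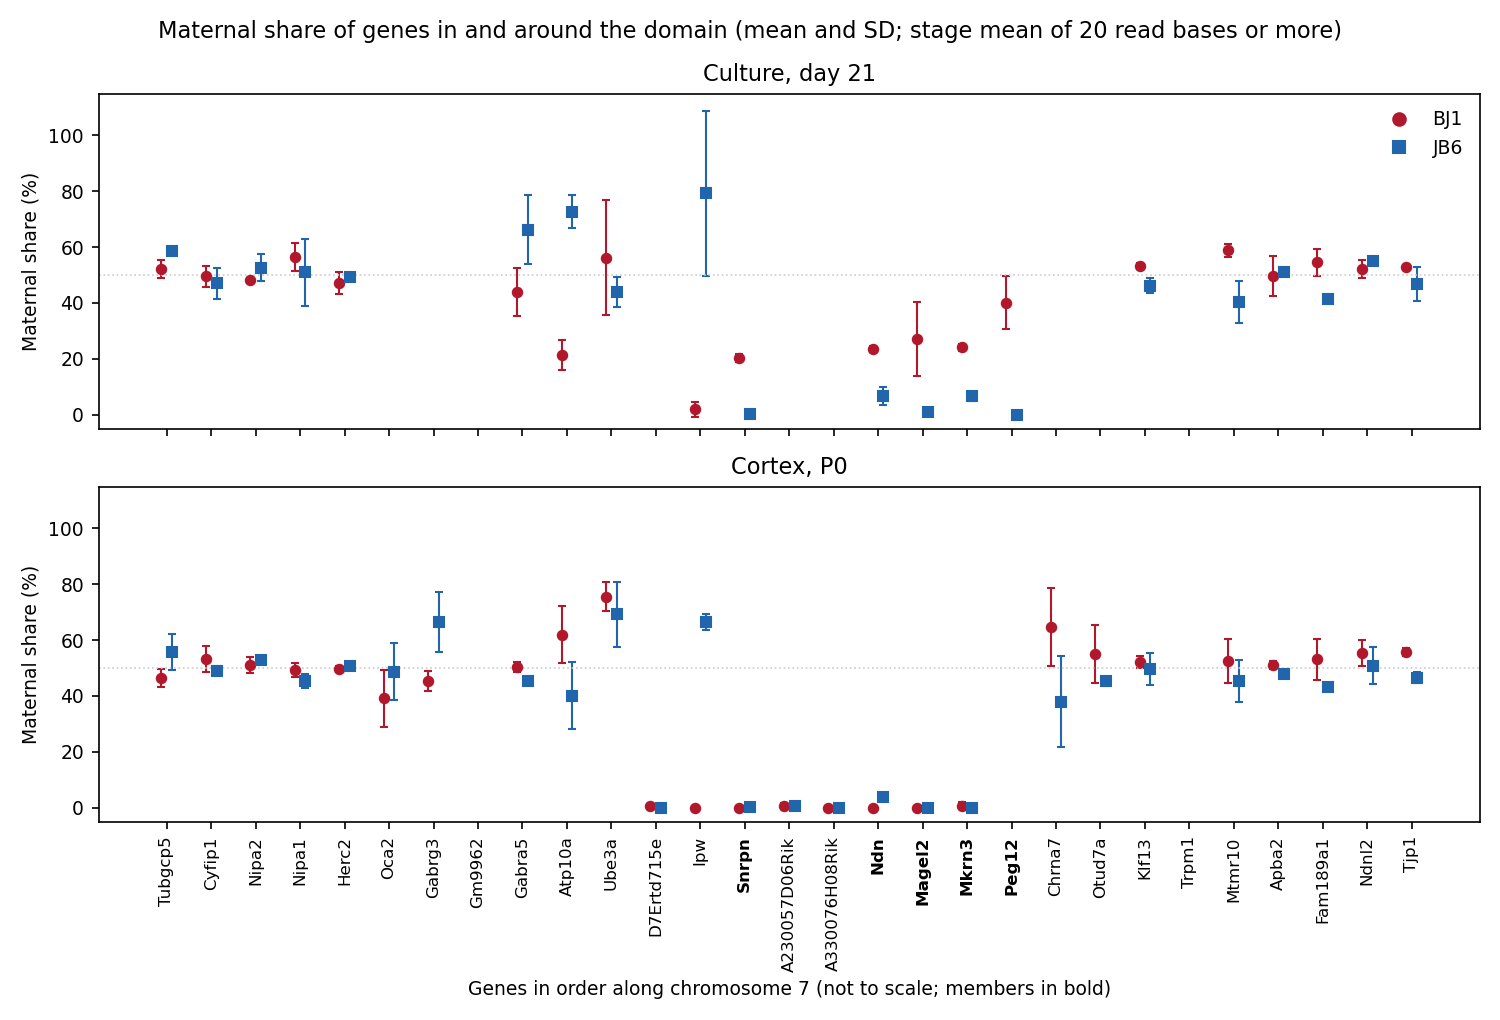
Mean maternal share (%) with SD (whiskers) of the 5 genes (bold) and of other genes of the region in order along chromosome 7, at day 21 (top) and P0 (bottom), for BJ1 and JB6, where the stage mean was at least 20 read bases. At day 21 the 5 members lie at 20.2% to 40.1% in BJ1 and 0% to 6.66% in JB6, at P0 the 4 above the floor lie at 0% to 3.73%, and most genes on both sides lie near 50%.

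Paternally expressed genes of other chromosome regions were set beside the members. Zrsr1, a splicing factor gene in an imprinted domain on another chromosome, was 17.7% ± 8.83 maternal in BJ1 at day 12 and 15.1% ± 14 at day 21, and had no maternal read base in JB6. Dlk1, which encodes a transmembrane protein of the Notch ligand family, was 24.8% ± 3.63 and 31.8% ± 5.03 in BJ1 and 4.36% ± 0.246 and 5.18% ± 1.09 in JB6. Peg3 was at 1.29% ± 0.207 and 0.463% ± 0.275 at day 12, and Mest at 0.158% ± 0.223 and 0.134% ± 0.0515. The high BJ1 shares of the 5 members thus had counterparts in some of these genes and not in others. Usp29 was higher in JB6, at 27% ± 14.1 and 32.3% ± 1.47 at days 12 and 21, against 2% ± 2.83 and 4.54% ± 0.767 in BJ1. Of 27 listed, 21 were tested at day 12 and 8 were more maternal in BJ1 and 3 less, and at day 21 these were 7 and 3 of 21. Over all genes tested, 20.5% and 19.6% were more maternal in BJ1. In BJ1 culture against tissue, 7 of 18 were more maternal at day 12 and 4 of 19 at day 21, against 3.72% and 4.63% of all genes tested. The median log2 difference was 0.39 and 0.72, against -0.01 and 0 over all genes.

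Of 15 genes of imprint maintenance and DNA methylation, 3 rose and 12 fell from ESCs to day 12, when 4257 of all 10484 genes tested rose and 3925 fell. Zfp57, a zinc finger protein that keeps methylation at imprints, fell by 3.46 on the log2 scale (SE 0.209, adjusted p = 1.63e-12), and the cofactor Trim28 fell by 1.88 (SE 0.161, 4.19e-10). The maintenance genes Uhrf1 and Dnmt1 fell by 1.64 (SE 0.129) and fell by 0.94 (SE 0.131). Between crosses, 0 of 15 tested in ESCs, 0 of 13 at day 12 and 0 of 13 at day 21 passed with edgeR. Of these, 2, 1 and 0 had an unadjusted p under 0.05, and DESeq2 called 0, 1 and 0. Of 32 partners and paralogs of the members, such as the Sm proteins and Frat1, 20 to 21 were tested per stage and 0 showed a parental bias with edgeR or DESeq2, with 0 to 2 at an unadjusted p under 0.05. Of these genes, 9 rose and 12 fell from ESCs to day 12 among 25 tested.

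Genes whose level was most like a member's over the 10 means of stage and cross were found among 11503 genes. These correlations are descriptions over means that share libraries. For Ndn they were Zfp282 (r = 0.971), Mad2l2 (0.97) and Sun2 (0.966), and for Snrpn Il17d (0.978), Clstn3 (0.973) and Ywhag (0.965). For Peg12 they were Car14 (0.98), Mum1l1 (0.96) and Cbx2 (0.959), for Magel2 Acpl2 (0.905), Rfk (0.902) and Tnfrsf19 (0.899), and for Mkrn3 Atxn7l1 (0.841). For Snrpn;Snurf they were Cpne8 (0.898), Pppde2 (0.884) and Pdk4 (0.879). Among 7836 autosomal genes, the maternal share most like that of Snrpn was that of Srgap1 (r = 0.941), Zrsr1 (0.93) and Ugp2 (0.928), and for Mkrn3 that of Fam20b (0.898), Arhgap31 (0.85) and Usp47 (0.843).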

How the data were processed

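RNA from hybrid stem cells, their cortical derivatives and cortex was sequenced from stranded TruSeq libraries, per the labels' protocols. The deposited values are counts: the authors counted sense bases over strain differences per gene and parental allele, per the file headers, on the mm9 build. Their deposited notes name the UCSC refFlat annotation and SAMtools mpileup 0.1.18. Novoalign, CASAVA 1.8.2, edgeR and HTSeq are listed in the submitters' processing notes. A read over several differences adds a count at each.

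Here, edgeR 4.0.16 (R 4.3.3) fitted its quasi-likelihood test to all autosomal genes with a stage mean of at least 20 read bases, with library, strain and parent as terms, and Benjamini-Hochberg adjustment over all genes at 0.05. Where shares were compared between stages, and for all tests of levels, the libraries of all 5 stages entered 1 fit and shared its spread. Levels used both alleles of all genes with TMM factors, and a mean of 20 over both stages compared. Errors after ± are SDs of shares and CPM, and approximate standard errors (log2 value over the root of F) of log2 differences. Intervals are 95% Wilson intervals, and limits for a count of 0 use 3 counts. Alternatives were DESeq2 1.42.0, limma 3.58.1 on log2 ratios with a pseudocount of 0.5, counts divided by 3, no floor, TMM per allele or none, mitochondrial genes left out, other fits, female cortex only, summed rows, a replicate block and each library left out. The comparisons within 1 cross were added after the data were seen. Simulated counts were run through the edgeR tests of parental bias at day 12, its difference from E13.5, and levels between ESCs and day 12. The other tests were not run on simulated counts. All 5 genes were to be named, with the 3 genes most like each in level over log2(CPM + 1) or in share. The members and lists were chosen with earlier results of these data known. Libraries of the E14 line were not analysed here.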

Additional observations from a re-analysis of the deposited data

Results flagged for a closer look

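Mkrn3 was 2.56% maternal in replicate 4 of P0 BJ1, from 1 maternal read base among 39, while the other 3 BJ1 libraries had none, so its gap to the others was the whole range of the group. With 1 maternal read base in the group, the library that holds it always makes up the range. P0 BJ1 is the only group of 4 libraries, and 9 sets of its values were examined, of which chance flags about 1 in 20.

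The difference between BJ1 and JB6 in maternal share was not the same in culture as in tissue for Ndn and Snrpn. For Ndn the adjusted p of the difference itself was 1.62e-06 between day 12 and E13.5 and 5.38e-08 between day 21 and P0. BJ1 was 17 and 16.9 percentage points above JB6 in culture and 4.36 and 3.73 below it in tissue. For Snrpn the values were 1.65e-05 and 1.22e-05, with 23.7 and 20 percentage points in culture and -0.715 and -0.215 in tissue. These p-values are for differences of log2 maternal to paternal ratios, not of percentage points. In tissue the ratios rest on few maternal read bases, for Snrpn at P0 0 of 3055 in BJ1 and 6 of 2982 in JB6. The Snrpn;Snurf row did not pass at day 12 (adjusted p = 0.215) and could not be fitted at day 21.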

How the results depend on the processing

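No direction of a single gene's call was reversed under any alternative run. Of the counts of members outside the comparisons within 1 cross, 367 stayed within 1.5 times their main value and 48 did not. Within 1 cross, 8 counts did not. The members more maternal in JB6 at day 12 than at E13.5 became 0 with counts divided by 3. They also became 0 without day 12 JB6 replicate 2 and without E13.5 JB6 replicate 2. At P0, 1 member was more maternal in BJ1 and 2 in JB6, with Snrpn on both sides through its separate rows. The 1 became 0 with DESeq2, with counts divided by 3, with limma, with female libraries only and with rows of 1 gene summed, and the 2 became 1 with counts divided by 3 and with summed rows. The 3 members more maternal at day 21 than at P0 became 1 with counts divided by 3. For levels, the 2 higher at day 21 than at P0 became 1 with DESeq2, with female libraries only and without TMM scaling. The 1 higher at day 12 than at E13.5 became 0 with female libraries only and without TMM scaling, and the 1 lower became 2 without the floor and without TMM scaling. Without the floor, 1 member was less maternal at day 12 than in ESCs, against 0. Between crosses, the count higher in BJ1 at day 21 rose from 0 to 1 with DESeq2, and at P0 fell from 1 to 0 with female libraries only.

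With 1 library left out, members more maternal in BJ1 ranged from 2 to 4 at day 21 and from 0 to 1 at P0. Levels higher in BJ1 ranged from 0 to 1 at day 12, stood at 1 at day 21 without JB6 replicate 2, and ranged from 0 to 1 at P0. Levels higher at day 12 than at E13.5 ranged from 0 to 1, and higher at day 21 than at P0 from 1 to 2. Levels lower at P0 than at E13.5 ranged from 1 to 2. The count of 2 includes Peg12, which was kept only through E13.5 and is given above as a description. With a count of 1, Peg12 was under the floor. A group of 1 library was assumed to vary like the others. Replicate numbers did not pair the samples: over 34 pairs the deviations correlated at -0.34 to 0.129, and 3 pairs exceeded 0.1. With the replicate block, the 1 level higher at day 12 than at E13.5 became 0, and no other count of levels moved by over 1.5 times. Except where stated, the cause was not tested. Depth limits Magel2, Mkrn3 and Peg12, which held 2 to 88 read bases per library, and Ndn in ESCs.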
